A study of Mus musculus with 14 samples.

Results

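The genes described here encode subunits of the N-terminal acetyltransferases, the enzymes that transfer an acetyl group from acetyl-CoA to the first residue of a protein, mostly while the chain is still leaving the ribosome. Members were the genes named Naa10, Naa15, Naa16, Naa20, Naa25, Naa30, Naa35, Naa40 and Naa50, each taken from the probe sets that the platform annotation pairs with exactly 1 symbol. This gave 8 of the 9 members among 19237 named genes, and Naa10, the catalytic subunit of NatA, was not analysed here. The genes were chosen by name, and their probe sets were selected on a measured value, the mean level over the 14 arrays, of which the highest was taken. This mattered for Naa20 alone, the member with 2 probe sets. The family was also put forward with earlier results of these arrays known, so the counts and adjusted p below describe the members and are no separate evidence that the family changed.

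Acetylated N-termini are found on most cytosolic proteins of mammals, and the enzymes divide the work by the residues they read. NatA, made of Naa10 and its ribosome anchor Naa15, acts on small residues exposed after the initiator methionine has been removed, NatB (Naa20 with Naa25) on methionine followed by an acidic or amide residue, and NatC (Naa30 with Naa35 and Naa38) on methionine followed by a bulky hydrophobic residue. Naa50, called NatE, sits on the NatA complex, Naa40, called NatD, is dedicated to the N-termini of histones H2A and H4, and Naa16 is a close relative of Naa15 that can take its place.

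Livers came from mice of 17 to 19 weeks, fed ad libitum and killed at 7 am. Of the 14 animals, each measured on 1 Affymetrix whole-transcript array, 7 were wild type (WT) and 7 carried K289R, a substitution in the nuclear receptor LRH-1 (gene Nr5a2) at a lysine to which the small protein SUMO is attached. The arrays were described as biological replicates, and strain, sex, litter and batch are not given in these sources. Levels are log2(intensity + 1), differences are K289R minus WT on that scale, and the adjusted p is that of limma over all 19237 genes, with a threshold of 0.05.

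The 9 measured hepatocyte markers had mean levels from 10.79 (Hnf4a) to 13.09 (Alb) over all arrays, while olfactory receptor genes, which stand for unexpressed genes, had medians of 3.35 to 3.52 per array. The interquartile range of log2 values, a measure of how far an array spreads its genes, ran from 2.36 to 2.83 on the WT arrays, against 2.28 to 2.70 on the K289R arrays. K289R replicates 6 and 7 stood apart with the lowest range, 2.28 in each, and WT replicates 4 and 6 had the lowest of their genotype, 2.44 and 2.36. In an earlier analysis of these arrays replicates 5 to 7 separated from replicates 1 to 4 within each genotype, a division the labels do not name, so differences are also given within these sets.

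Of the 8 measured members, 6 fell, 1 rose and 1 did not pass. Over all genes 10.8% fell and 8.37% rose, 19.1% in either direction. The median difference was -0.42 over the members and 0.05 over all genes. The falls were those of Naa20 and Naa25 (NatB), Naa30 (NatC), Naa50 (NatE) and the NatA anchors Naa15 and Naa16, the rise was that of Naa40 (NatD), and Naa35 (NatC) was the member that did not pass. A lower level in whole liver can reflect fewer cells that express a gene or less RNA per cell, and these cannot be told apart here.

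**Figure D1:**
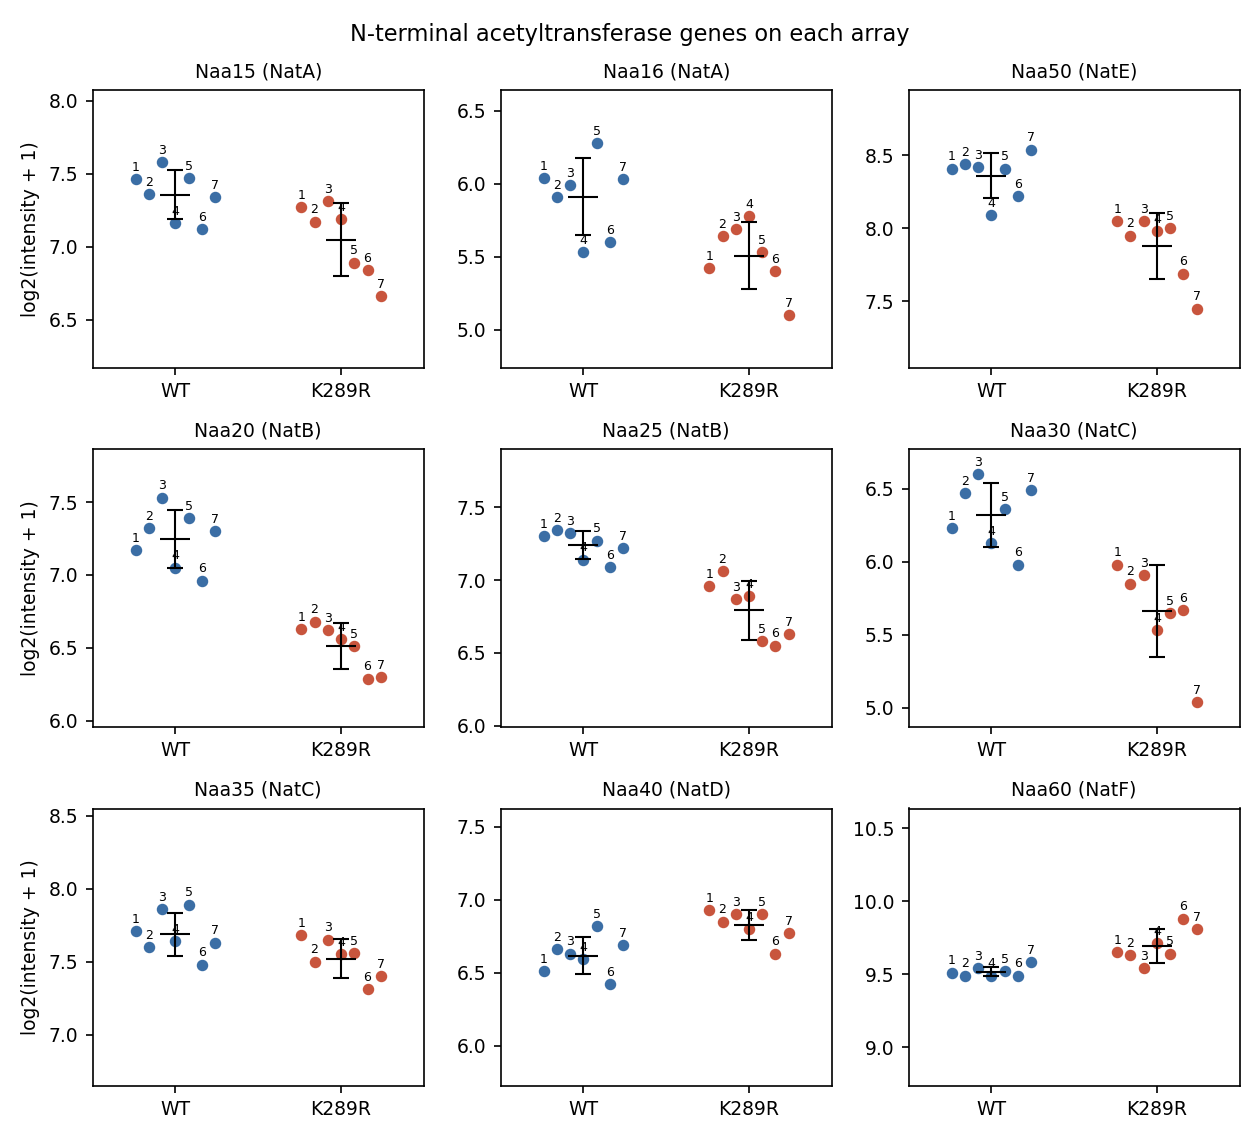
Levels of 8 members and of Naa60 on each array (vertical axis, log2(intensity + 1), the same span in every panel), with WT in blue, K289R in red, the replicate number above each point and bars for mean and SD of 7 arrays. For Naa20, Naa25 and Naa50 every K289R array lies below every WT array, and Naa40 and Naa60 are the panels in which the K289R mean is the higher.

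The NatB pair fell together. Naa20, the catalytic subunit, lay between 6.96 and 7.53 (median 7.30) on the WT arrays and between 6.29 and 6.68 (median 6.56) on the K289R arrays. The groups did not overlap, as was the case for 4.73% of all genes in this direction. Its mean went from 7.25 ± 0.20 to 6.51 ± 0.16 (SD, n = 7 each), a difference of -0.73 ± 0.09 (SE), or 1.66-fold lower, with an adjusted p of 8.61e-06. The second probe set of Naa20 gave WT levels of 6.70 to 7.25 and K289R levels of 6.13 to 6.47, again without overlap, and a difference of -0.71. Whether both probe sets share probes, or respond to a near-identical copy, was not examined, so the second is not separate support.

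Naa25, the auxiliary subunit that holds Naa20 at the ribosome, ranged from 7.09 to 7.34 (median 7.27) on the WT arrays, against 6.55 to 7.06 (median 6.87) on the K289R arrays. Each K289R array again lay below each WT array. The difference was -0.45 ± 0.08 (SE), 1.36-fold lower, with an adjusted p of 0.00059. WT values were tight (SD 0.09), while the K289R values (SD 0.20) divided into 6.87 to 7.06 on replicates 1 to 4 and 6.55 to 6.63 on replicates 5 to 7.

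Within NatC the catalytic gene fell and the call was not made for its partner. Naa30, which carries the active site, lay at 5.98 to 6.60 (median 6.36) on the WT arrays, against 5.04 to 5.98 (median 5.67) on the K289R arrays. Of the K289R arrays, 6 were below the lowest WT array and K289R replicate 1 was level with it. The difference was -0.66 ± 0.13 (SE), 1.58-fold lower, with an adjusted p of 0.000807. The lowest value, 5.04 on K289R replicate 7, lies within the range of olfactory receptor genes, 95% of which had means under 5.11.

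Naa35, the large auxiliary subunit of NatC, ranged from 7.48 to 7.89 (median 7.64) on the WT arrays, against 7.31 to 7.68 (median 7.55) on the K289R arrays. The groups overlapped between 7.48 and 7.68, and all 7 K289R arrays were below the WT mean. The difference of -0.16 ± 0.08 (SE) had a 95% confidence interval of -0.32 to -0.0031 before any adjustment and an adjusted p of 0.157. A fall of the size seen for Naa30 lies outside that interval. The difference between the partners was not tested.

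Naa50, which acetylates N-termini that keep their methionine and is also needed for sister chromatid cohesion, lay at 8.09 to 8.54 (median 8.41) on the WT arrays, against 7.45 to 8.05 (median 7.98) on the K289R arrays. No K289R array reached the lowest WT array. The mean went from 8.36 ± 0.15 to 7.88 ± 0.23 (SD), a difference of -0.48 ± 0.09 (SE), 1.39-fold lower, with an adjusted p of 0.000914. K289R replicates 6 and 7, at 7.69 and 7.45, were below the other 5, which lay at 7.95 to 8.05.

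Both NatA anchors were lower in K289R livers. Naa16 ranged from 5.53 to 6.28 (median 5.99) on the WT arrays, against 5.10 to 5.78 (median 5.53) on the K289R arrays, and 4 of 7 K289R arrays were below the lowest WT array. The difference was -0.40 ± 0.12 (SE), with an adjusted p of 0.0195. Naa15 ranged from 7.12 to 7.58 (median 7.36) on the WT arrays, against 6.66 to 7.31 (median 7.17) on the K289R arrays. Its K289R arrays divided into 7.17 to 7.31 on replicates 1 to 4, inside the WT range, and 6.66 to 6.89 on replicates 5 to 7, below it. The difference of Naa15 was -0.31 ± 0.10 (SE), with an adjusted p of 0.0409.

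The call of Naa15 was lost in 8 of the 14 fits made without a single array (leave-one-out fits), namely those without WT replicate 1, 2, 3, 5 or 7 or without K289R replicate 5, 6 or 7, with adjusted p of 0.0226 to 0.0939 over the 14 fits. Naa16 kept its call in all 14. In a test on each gene's own variance, neither Naa15 nor Naa16 passed. Without K289R replicates 6 and 7 together, Naa15 (-0.19, adjusted p = 0.186) and Naa16 (-0.30, adjusted p = 0.0836) no longer passed. Whether their partner Naa10 differed is not answered here.

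Naa40, the histone N-terminal acetyltransferase, was the 1 measured member that rose. It lay at 6.42 to 6.82 (median 6.63) on the WT arrays, against 6.63 to 6.93 (median 6.85) on the K289R arrays. All 7 K289R arrays were above the WT mean and 4 were above the highest WT array. The difference was 0.21 ± 0.07 (SE), 1.16-fold higher, with an adjusted p of 0.0474. That call is close to the threshold, and it was lost in 12 of the 14 leave-one-out fits, all but those without WT replicate 5 or without K289R replicate 6 (adjusted p of 0.0208 to 0.101 over the 14 fits). The call of Naa40 was also lost with median centring of the arrays, where 5 members passed and all were lower.

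Naa60, known as NatF, which acetylates the cytosolic ends of membrane proteins at the Golgi, is the 1 further gene of the enzyme family with a probe set of its own name. It is no member of the set above. WT arrays lay at 9.49 to 9.58 (median 9.51, SD 0.03) and K289R arrays at 9.54 to 9.88 (median 9.65, SD 0.12), with 6 of 7 K289R arrays above the highest WT array. The difference was 0.18 ± 0.06 (SE), with an adjusted p of 0.0313. The call was lost in 7 of the 14 leave-one-out fits, those without WT replicate 1, 2, 4 or 5 or K289R replicate 4, 6 or 7 (adjusted p of 0.016 to 0.0641). Naa11, Naa38, Naa80 and the NatA-binding protein gene Hypk were not analysed here.

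Within each genotype, the arrays with the lowest interquartile ranges had the lowest member levels. The mean over the 8 members, expressed relative to the WT mean of each gene, was -0.18 on WT replicate 4 and -0.23 on WT replicate 6, the WT arrays with the lowest interquartile ranges, and 0.01 to 0.15 on the other 5 WT arrays. On those 2 arrays all 8 members were below their WT mean, Naa40 included. In K289R livers the mean was -0.22 to -0.31 on replicates 1 to 4, -0.39 on replicate 5, -0.54 on replicate 6 and -0.67 on replicate 7, where the interquartile ranges were 2.61 to 2.70, 2.49, 2.28 and 2.28.

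**Figure D2:**
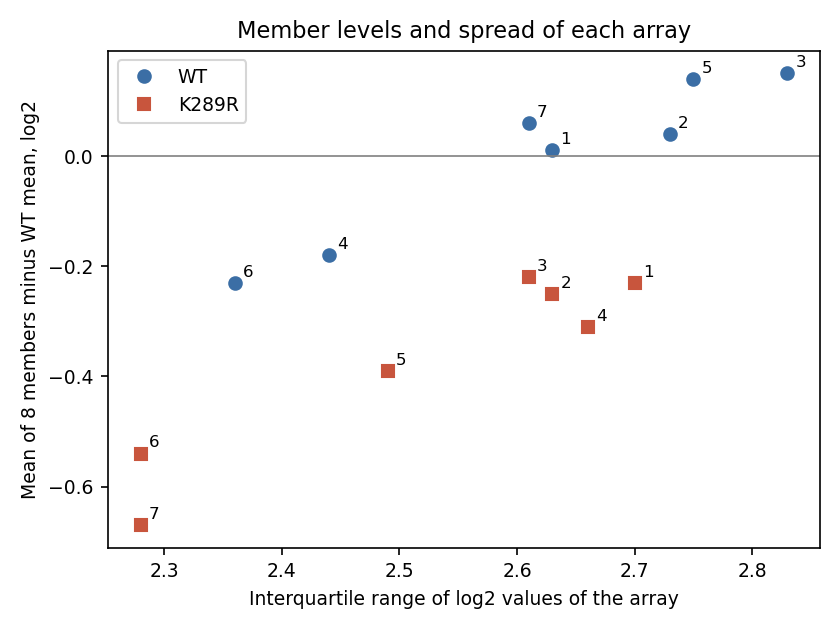
Mean of the 8 members relative to their WT means (vertical axis, log2) against the interquartile range of all genes on the array (horizontal axis, log2), with WT as blue circles, K289R as red squares and replicate numbers beside the points. The arrays with the lowest ranges have the lowest member levels in both genotypes, and among arrays with a range of 2.61 or more the WT values (0.01 to 0.15) lie above the K289R values (-0.31 to -0.22). The limit of 2.61 was chosen after the values were seen. The part of array spread in the member differences was not tested.

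With the interquartile range of each array as a covariate, a model chosen after the values were seen, the same 7 members passed. In this model 4519 of all 19237 genes passed, 2171 lower and 2348 higher, against 3678 with genotype alone. The differences became smaller for the members that fell, -0.63 for Naa20, -0.37 for Naa25, -0.54 for Naa30, -0.39 for Naa50, -0.29 for Naa16 and -0.19 for Naa15, and larger for Naa40, 0.26. The adjusted p of Naa15 was 0.0174 and that of Naa40 0.00227 in this model. Without K289R replicates 6 and 7, Naa20 (-0.64), Naa25 (-0.37), Naa30 (-0.54), Naa50 (-0.36) and Naa40 (0.26) passed. Of all 19237 genes 3418 passed without these arrays, 1674 lower and 1744 higher.

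Among replicates 1 to 4 alone, where 14.1% of all genes passed, 5 members passed. These were Naa20 (-0.64 ± 0.10, SE), Naa25 (-0.33 ± 0.08), Naa30 (-0.54 ± 0.12), Naa50 (-0.33 ± 0.09) and Naa40 (0.27 ± 0.08). Among replicates 5 to 7 alone, where 9.16% passed, 6 members passed, all lower. They were Naa20 (-0.85 ± 0.14), Naa25 (-0.61 ± 0.12), Naa30 (-0.82 ± 0.18), Naa50 (-0.68 ± 0.15), Naa16 (-0.63 ± 0.17) and Naa15 (-0.51 ± 0.13), while Naa40 differed by 0.12 ± 0.14 (adjusted p = 0.576). Whether the genotype difference itself differs between the sets was not tested. With the 4 sets as random blocks, Naa20, Naa25, Naa30 and Naa50 passed (adjusted p of 0.000155 to 0.00699) and Naa15 (0.0998), Naa16 (0.079) and Naa40 (0.185) did not.

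**Figure D3:**
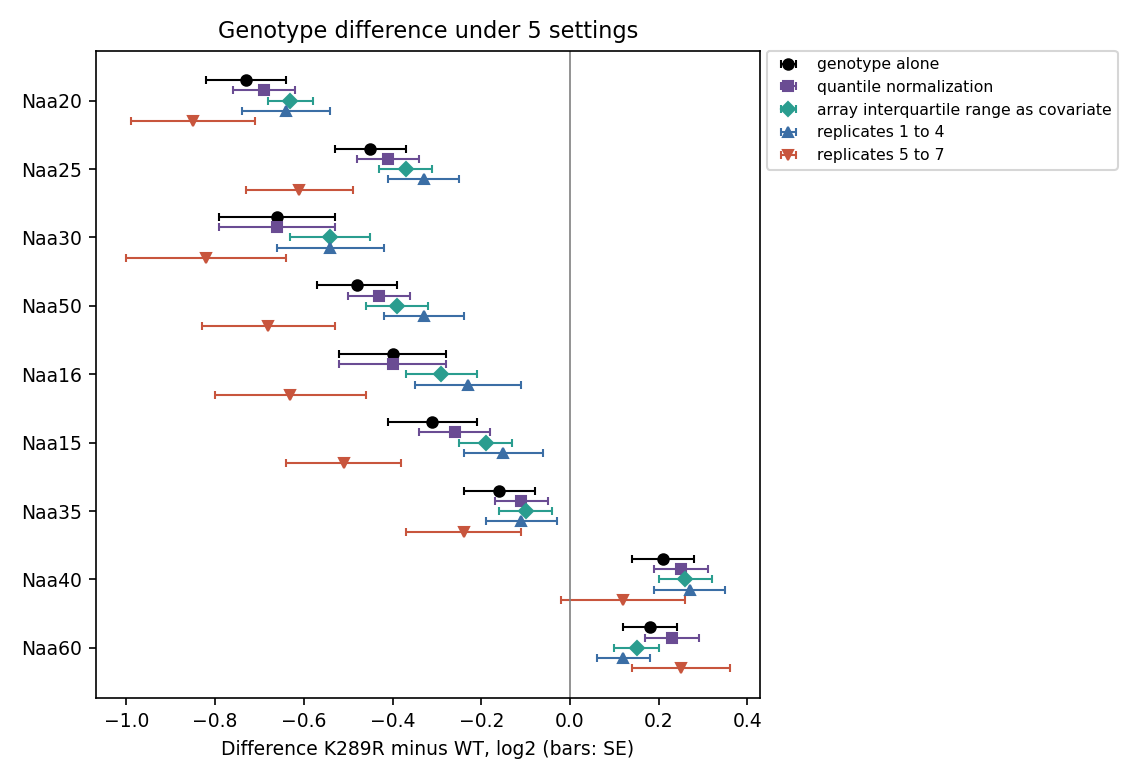
Difference between genotypes (horizontal axis, K289R minus WT, log2, with SE as bars) for 8 members and Naa60 under 5 settings marked by symbol and colour. The points of Naa20, Naa25, Naa30 and Naa50 stay left of zero with their bars in each of the 5 settings, whereas the bar of Naa40 reaches zero among replicates 5 to 7.

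The genes most like a member over the arrays were sought among 19236 others, by Pearson correlation of deviations from the genotype means on 14 arrays, a description in which all genes share the spread of the arrays. Those nearest to Naa20 were Ginm1 (0.956), Zfp51 (0.955) and Fam98a (0.954). Ginm1 fell by 0.82 ± 0.11 (SE) and its groups did not overlap, while the mean of its probe sets differed by -0.37. Zfp51 (-0.52 ± 0.15, adjusted p = 0.0174) and Fam98a (-0.38 ± 0.10, adjusted p = 0.00767) also fell. With sets as random blocks Zfp51 did not pass (adjusted p = 0.0719). Those nearest to Naa50 were Ppa2 (0.974), Cbx3 (0.968) and Il1rap (0.961), and none of these passed between genotypes (differences of -0.13, -0.22 and -0.11). For Naa50, likeness within a genotype did not go with a like difference between genotypes.

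RefSeq promoter windows of assembly GRCm38.p6, from 250 bases before to 50 after the start site, were held for 7 of the 8 measured members, with none for Naa25. The deposited values name no genome build, so these windows are tied to the members by symbol only. Their GC content ran from 55.3% (Naa20) to 73.3% (Naa30), against a median of 52.7% over 32841 promoters. They held 21 (Naa20) to 36 CpG dinucleotides, against a median of 7. The genes lie on chromosomes 2, 3, 5, 13, 14, 16 and 19, of which chromosome 14 holds both Naa16 and Naa30, and none shares chromosome 1 with Nr5a2.

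Both strands of each window were searched for spelled motifs. The core of the LRH-1 response element, written CAAGGTCA or CAAGGCCA, was in none of these windows, against 1.56% and 2.41% of all promoters. At these shares most promoters hold neither spelling, so its absence from so few windows is not informative about LRH-1. The NRF1 motif GCGCNTGCG was in the windows of 4 of 7 members, Naa15, Naa16, Naa40 and Naa50, against 6.32% of all promoters and 17.7% of the 8700 promoters with at least 20 CpG. The ETS motif CCGGAAGT was in that of Naa20, once on each strand, against 3.89% of all promoters and 8.57% of those with at least 20 CpG. The E-box CACGTG and the CCAAT box were in that of Naa15 alone (7.15% and 37.4% of all promoters), the YY1 core AAGATGGC in that of Naa16 alone (2.75%), and the amino acid response motif TGATGNAAT in none (0.965%). On the palindromic stretch of Naa16 the NRF1 motif matches both strands, which overlap. A match is a description of the sequence and not a binding site. The motif GCGCNTGCG was found both beside members that fell and beside Naa40, which rose.

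The 250 bases before the start site are shown for Naa20, the member with the largest difference, and for Naa50 and Naa40, a pair that moved in opposite directions and share a motif. Motif matches are in capitals, and each sequence is written 5′ to 3′ along the gene.
Naa20 (GRCm38.p6, chr2:145902991-145903240, plus strand): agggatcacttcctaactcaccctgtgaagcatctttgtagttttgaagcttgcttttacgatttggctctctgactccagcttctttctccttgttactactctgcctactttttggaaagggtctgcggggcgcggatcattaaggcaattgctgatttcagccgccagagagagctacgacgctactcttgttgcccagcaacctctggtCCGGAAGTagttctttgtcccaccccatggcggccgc
Naa50 (GRCm38.p6, chr16:44139541-44139790, plus strand): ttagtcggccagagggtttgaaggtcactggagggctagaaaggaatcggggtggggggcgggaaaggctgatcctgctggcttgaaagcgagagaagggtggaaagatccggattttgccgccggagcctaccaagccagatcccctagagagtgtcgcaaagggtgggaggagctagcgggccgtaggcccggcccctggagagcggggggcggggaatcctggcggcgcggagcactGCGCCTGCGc
Naa40 (GRCm38.p6, chr19:7241223-7241472, minus strand): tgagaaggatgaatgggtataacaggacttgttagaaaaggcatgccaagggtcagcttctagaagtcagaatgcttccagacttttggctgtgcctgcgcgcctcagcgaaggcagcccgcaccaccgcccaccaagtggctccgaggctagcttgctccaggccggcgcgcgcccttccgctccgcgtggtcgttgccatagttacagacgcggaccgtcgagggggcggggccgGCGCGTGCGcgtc

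Other factors of nascent chain handling were counted in lists written for the purpose. Of 15 measured genes whose products meet the chain at the ribosome exit or the translocon, 9 fell, 1 rose and 5 did not pass, beside 10.8% lower and 8.37% higher over all genes. The median difference was -0.31 against 0.05 over all genes. Both partners of the ribosome-associated chaperone pair fell without overlap of the groups, Dnajc2 from 5.96 ± 0.16 to 5.47 ± 0.11 (SD, n = 7 each) and Hspa14 from 6.72 ± 0.11 to 6.26 ± 0.10. The signal recognition particle gene Srp9 fell by 0.52 ± 0.09 (SE) and the translocon gene Sec61b by 0.67 ± 0.12, also without overlap. The 1 gene that rose, Btf3, encodes a subunit of the nascent polypeptide-associated complex.

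Enzymes of methionine removal and of other N-terminal modification were called in both directions. Of 8 measured, 2 rose, 1 fell and 5 did not pass, beside 8.37% higher and 10.8% lower over all genes, and the median difference was 0.12. Metap2, which removes the initiator methionine and so exposes NatA substrates, fell by 0.24 ± 0.06 (SE, adjusted p = 0.00627), and its groups did not overlap. It did not pass within either set alone (adjusted p up to 0.186) or with arrays scaled to 1 interquartile range (-0.18, adjusted p = 0.0951). Its relative Metap1 was among the 5 that did not pass. The risers act on acetylated products: Apeh, which releases acetylated residues from peptides, rose by 0.41 ± 0.07 and Acy1, which hydrolyses acetylated amino acids, by 0.56 ± 0.09. Apeh did not pass among replicates 5 to 7 alone (adjusted p = 0.133).

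Of 9 measured genes of N-degron recognition, the recognition of N-termini as degradation signals, 2 rose, 1 fell and 6 did not pass, beside 19.1% called in either direction over all genes (median difference -0.01). The risers Zyg11b (0.27 ± 0.07, SE) and Zer1 (0.26 ± 0.07) encode the substrate receptors for N-terminal glycine. Ubr1, a ligase of the arginine branch, fell by 0.23 ± 0.08, a call lost in 10 of the 14 leave-one-out fits, those without WT replicate 1, 2, 3, 5 or 7 or K289R replicate 1, 4, 5, 6 or 7 (adjusted p of 0.0164 to 0.0984). Zyg11b (adjusted p = 0.0533), Zer1 (adjusted p = 0.0737) and Ubr1 (adjusted p = 0.118) did not pass with sets as random blocks. Zyg11b and Zer1 also lost their calls with median centring and among replicates 5 to 7 alone. Ubr1 also lost its call with median centring and with the mean of its probe sets in place of the brightest.

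Acetyl-CoA is the donor of the reaction. Of 8 measured genes of its supply and carriage, 2 fell, 1 rose and 5 did not pass, beside the same 19.1% over all genes (median difference -0.09). Dlat, the acetyltransferase of the pyruvate dehydrogenase complex, fell by 0.51 ± 0.09 (SE) and Slc33a1, the carrier into the endoplasmic reticulum, by 0.47 ± 0.11, while Crat, carnitine acetyltransferase, rose by 0.38 ± 0.11 (adjusted p = 0.0219, and 0.0558 without WT replicate 1). The rise of Crat was absent among replicates 5 to 7, where the difference was -0.02 (adjusted p = 0.928), and the fall of Dlat was -0.28 among replicates 1 to 4 and -0.82 among replicates 5 to 7. Slc33a1 did not pass among replicates 5 to 7 alone (adjusted p = 0.0828). Of 16 measured acetyltransferases of other kinds 2 rose, 1 fell and 13 did not pass, a share near the 19.1% of all genes (median difference 0.06). The fall was that of Nat8, an acetyltransferase of the endoplasmic reticulum that acts on cysteine conjugates (-0.84 ± 0.12), and the rises were those of the lysine acetyltransferase genes Crebbp (0.25 ± 0.07) and Kat7 (0.24 ± 0.08). The call of Kat7 was lost in 8 of the 14 leave-one-out fits, those without WT replicate 1, 4, 6 or 7 or K289R replicate 1, 2, 3 or 4 (adjusted p of 0.0256 to 0.0808). With sets as random blocks Crat (adjusted p = 0.0733), Crebbp (0.0595) and Kat7 (0.139) did not pass. With the mean of its probe sets in place of the brightest, Crebbp differed by 0.04 (adjusted p = 0.703), and it also lost its call with median centring and among replicates 5 to 7 alone.

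**Figure D4:**
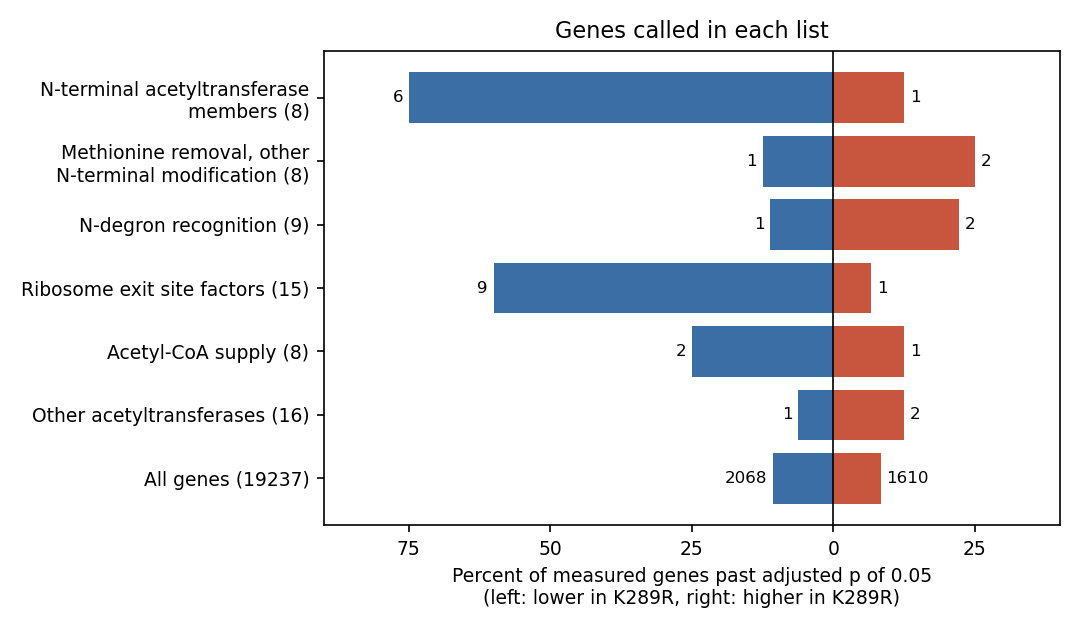
Percent of the measured genes of each list (number in brackets) past an adjusted p of 0.05, with genes lower in K289R livers to the left in blue, genes higher to the right in red and the number of genes at the end of each bar. The members (6 of 8) and the ribosome exit site factors (9 of 15) have the longest bars to the left, against 2068 of 19237 over all genes.

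Markers of liver cell types were called in both directions. The median difference per list ran from -0.05 (Kupffer cell) to 0.19 (cholangiocyte), against -0.42 over the members and 0.05 over all genes. Of 11 Kupffer cell markers, 4 fell (Vsig4, C1qc, Folr2 and Adgre1) and C1qa rose, and their summed intensity ran from 2337 to 2838 on the WT arrays, against 1660 to 2964 on the K289R arrays. Of 9 hepatocyte markers Apoa1 (0.18 ± 0.04, SE) and Serpinc1 (0.12 ± 0.04) rose and 7 did not pass. Of 10 sinusoidal endothelial markers 3 rose and 1 fell, of 10 stellate cell markers 2 rose and 1 fell, and 1 of 9 T and NK cell markers and 1 of 7 neutrophil markers rose. Over all genes 10.8% fell and 8.37% rose, 19.1% in either direction. The hepatocyte, T and NK and neutrophil lists were near that share. In leave-one-out fits the calls of Adgre1, Serpinc1, Gpr182 (endothelial), Reln (stellate) and Mpo (neutrophil) were absent from 8, 10, 4, 11 and 9 of 14. A test on each gene's own variance called 3 Kupffer, 3 hepatocyte, 3 endothelial, 2 stellate, 1 T and NK and 0 neutrophil markers. The same test called 5 of the 8 members, 4 lower and 1 higher, and left out Naa15 and Naa16. Over all 19237 genes it called 3177. None of the 6 cholangiocyte and 5 B and plasma cell markers passed with limma, where 1 of each had an unadjusted p under 0.05, and 0 of each passed the test on its own variance. The part of these markers in the member differences was not tested.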

How the data were processed

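Each of 14 livers (7 WT, 7 K289R) was measured on 1 array, after amplification of 100 ng RNA per the labels' protocols. The deposited table holds linear intensities per probe set, and per the submitters' processing notes the authors used Affymetrix Expression Console. Version, background correction, scaling between arrays and genome build: not given in the sources used here. Intensities ran from 2.104 to 12782, and array medians from 39.19 to 43.31. No read depth exists for arrays, and their number limits the precision.

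From these, log2(intensity + 1) was computed, a scale on which changes of dim genes are understated. Of 35556 probe sets, 21456 had 1 symbol, 2376 with several were not used, and 11724 had no entry. Symbols were updated through Entrez identifiers in the GRCm38.p6 gene table (21277 matched). Each of the 19237 genes took its probe set with the highest mean.

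limma 3.58.1 in R 4.3.3 compared genotypes with an intensity trend in the prior, 2-sided, with Benjamini-Hochberg adjustment over all genes. It was tested on simulated data in which each gene varied independently, so that test does not cover spread shared by the genes of an array. The members and lists were chosen with earlier results of these data known. Named were all measured members, up to 4 passing genes of each list (cell marker lists are given mainly as counts) or else the 2 with the smallest p, and the 3 genes most like 2 members. Btf3, Metap1 and C1qa were named after their values were seen. Classes of N-terminal residues could not be formed without protein sequences. P-values cover the spread between animals as labelled.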

Additional observations from a re-analysis of the deposited data

How the results depend on the processing

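Naa20, Naa25, Naa30 and Naa50 passed, lower, in all 14 fits that left out 1 array and in the 17 other settings. In those 17 settings Naa16 passed in 13, Naa15 in 12 and Naa40 in 14, and Naa35 in 0. Between 5 and 6 members passed when 1 array was left out, against 7 with all arrays, and 3082 to 3857 genes in all, against 3678. With sets as random blocks 4 members and 2176 genes passed, and among replicates 5 to 7 alone 1762 genes, with fewer arrays. Median centring gave 1102 higher and 1905 lower genes, quantile normalization 2406 and 2028, and arrays scaled to 1 interquartile range (added after seeing the data) 1957 and 1680, against 1610 and 2068. The call of Naa60 was lost (0 genes instead of 1) with median centring, a prior without trend, array weights, the replicate block (adjusted p = 0.0515), sets as random blocks, either set alone, without K289R replicates 6 and 7, with scaled arrays, and in 7 of 14 fits that left out 1 array, where 0 to 1 passed. Crat turned to -0.02 among replicates 5 to 7, and the cause was not tested. Replicate numbers are shared between genotypes, but deviations of same-numbered arrays correlated at -0.30 to 0.56, over 0.1 in 3 of 7 pairs, so the arrays were not treated as pairs. With the replicate block 7 members and 3838 genes passed, and 2 of 7 WT arrays correlated best with the K289R array of their number. Dim members such as Naa16 and Naa30 lie near the level of unexpressed genes on single arrays, which limits how far their falls can be measured.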
